A study of Rattus norvegicus with 172 samples.

Results

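The genes examined here make, break down and read cyclic AMP (cAMP) in the granule cells of the rat dentate gyrus, its excitatory principal neurons, after seizures in models of epilepsy. They were chosen by gene symbol: adenylyl cyclases (Adcy with a digit), phosphodiesterases (Pde with a digit), the catalytic (Prkac) and regulatory (Prkar) subunits of protein kinase A (PKA), and Crem and Creb1, which encode transcription factors of the CREB family. Of the probe sets with 1 gene symbol, 65 matched and represented 40 genes, while another 3 carried several symbols and were left out. No probe set carried the symbol Icer. Each gene was represented by its brightest probe set. Of the 40 genes, 29 were bright enough to be tested among 10761 genes in all, and 11 were not. The tested members comprised 5 of 8 cyclases, 15 of 23 phosphodiesterases, Pde4dip (a phosphodiesterase-interacting anchor protein and not an enzyme), both PKA catalytic subunits, all 4 PKA regulatory subunits, Creb1 and Crem. Adcy1 and Adcy7 were not analysed here.

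Laser capture took the granule cells out of 10 µm hippocampal sections of 164 male Sprague-Dawley rats, pooled within each rat to at least 10 ng of RNA, and measured on 172 Affymetrix arrays. In the pilocarpine model, 2 laboratories, called A and B here, gave 300 to 350 mg/kg of this cholinergic agonist after 1 mg/kg of methylscopolamine, and ended status epilepticus (SE, a prolonged seizure) with pentobarbital after 90 min. Their controls had methylscopolamine and saline. In the kainate model, another 2 laboratories injected 5 mg/kg of this glutamate receptor agonist every hour until SE began, and their controls had saline. SE was left to subside in kainate laboratory A, which took 6 to 8 h, whereas laboratory B began with 7.5 mg/kg and gave pentobarbital after 90 min. A single laboratory, 1 of 7 in all, contributed SSSE (self-sustaining status epilepticus). Kindling, a series of stimulations that evoke ever stronger seizures, was done by 2 laboratories, again called A and B. Rats were taken at day 1, 3 or 10 after SE or at kindling stage 2, 4 or 5, with 6 rats in each group except 5 at SSSE day 3, 4 at SSSE day 10 and 5 SSSE controls. The controls of a laboratory serve all 3 of its times, so the changes at those times share controls. Groups are separate rats, and nothing in the labels ties the rats of different groups to each other.

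Adenylyl cyclases convert ATP to cAMP, and phosphodiesterases hydrolyse cAMP, cGMP or both. cAMP binds the regulatory subunits of PKA and frees the catalytic subunits, which phosphorylate many synaptic and nuclear proteins, CREB among them. CREB and its relatives bind the cAMP response element (CRE). Crem encodes activators as well as repressors, and an internal promoter of the gene gives the short repressor ICER, which is known as cAMP-inducible through its CREs. In the mouse, long-term potentiation at the mossy fibre synapse, the output of granule cells, depends on cAMP and PKA.

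The promoter windows of Crem are shown because Crem was the CREB family member that changed, and because windows 2 and 3 were the ones among all member windows that hold the full CRE. Each window runs from 250 bases before to 50 bases after an annotated start, on the plus strand of chromosome 17 in RefSeq's rat assembly GRCr8. Capitals mark the palindromic CRE, TGACGTCA, or its core TGACG outside a full site, both searched on both strands. The first is the upstream window, and the other two lie farther downstream in the gene.
Crem window 1, chr17:58933816-58934115: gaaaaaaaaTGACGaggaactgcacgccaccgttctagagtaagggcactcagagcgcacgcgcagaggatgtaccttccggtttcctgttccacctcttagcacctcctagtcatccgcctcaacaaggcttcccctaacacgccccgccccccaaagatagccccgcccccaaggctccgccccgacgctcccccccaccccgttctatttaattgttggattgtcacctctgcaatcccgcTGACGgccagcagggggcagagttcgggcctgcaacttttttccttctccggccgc
Crem window 2, chr17:58984547-58984846: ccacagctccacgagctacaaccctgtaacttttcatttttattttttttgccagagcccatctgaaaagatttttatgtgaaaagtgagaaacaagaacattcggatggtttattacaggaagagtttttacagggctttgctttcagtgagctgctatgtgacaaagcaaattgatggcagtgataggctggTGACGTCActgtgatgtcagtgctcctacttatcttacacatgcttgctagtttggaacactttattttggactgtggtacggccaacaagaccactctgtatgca
Crem window 3, chr17:58985240-58985539: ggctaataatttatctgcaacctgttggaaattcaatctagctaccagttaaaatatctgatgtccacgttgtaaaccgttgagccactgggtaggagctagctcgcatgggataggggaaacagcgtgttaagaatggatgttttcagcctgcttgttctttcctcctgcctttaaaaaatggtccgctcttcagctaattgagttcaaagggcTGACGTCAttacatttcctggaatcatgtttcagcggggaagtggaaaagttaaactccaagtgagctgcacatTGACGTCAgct

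The upstream window of Crem held cores that begin 241 and 6 bases before the start, and no full site. The second window held a full site that begins 56 bases before its start, and the third held full sites that begin 35 bases before and 39 bases after its start. Of the 40 members, 28 had a window in the table, with 43 windows in all. The full CRE stood in 2 of these 43, both of Crem, against 1.83% of all 33469 windows. The core, here counted inside full sites as well, stood in 13 of the 43, over 9 members, against 21.2% of all windows. Only 14 windows of all, 0.0418%, held at least 2 full sites. The windows of Pde2a and Adcy2 held neither motif, and Adcy8 had no window in the table. These are matches of letters and no measure of binding.

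All levels below are log2(signal + 16) of the array signal, and a change is the difference of such levels from the laboratory's own controls, as a mean of its laboratories, with the standard error of the fit after the sign ±. Adding 16 makes the change of dim genes look smaller, and the folds given below are of signal + 16. A gene counted as changed at a Benjamini-Hochberg adjusted p under 0.05 over all 10761 genes in limma's moderated test. Since granule cells were taken in bulk, fewer cells of a type and less RNA per cell cannot be told apart. All 7 tested granule cell markers lay above the array median in all 41 control rats. Their median change was -0.91 at pilocarpine day 1, -1.04 at kainate day 1, -0.79 at SSSE day 1 and -0.03 at kindling stage 5. At day 1 their summed level was lower, in laboratory A of kainate at 3329 to 3838 signal units against 7001 to 9024 in its controls. The summed level of microglia and macrophage markers was higher, in pilocarpine laboratory A at 743.4 to 2128 against 347 to 753.8 in its controls, with 6 of 10 of these markers called higher at pilocarpine day 1 and 8 of 10 at day 3. At SSSE day 1 and kindling stage 5 it was 0 of 10. Astrocyte markers were called lower for 7 of 9 at day 1 of both pilocarpine and kainate and for 5 of 9 at SSSE day 1. At day 3 their summed level went the other way, by log2 differences of 1.02 and 0.47 in pilocarpine laboratories A and B and 0.34 and 0.60 in kainate laboratories A and B (exact permutation tests, adjusted p from 0.0177 to 0.0424). Most of these markers were not called then, with 3 of 9 higher at pilocarpine day 3, 2 of 9 at kainate day 3 and 0 lower. Their median changes were 0.40 and 0.05. The summed level of interneuron markers was higher at kainate day 1 of laboratory B, by 1.01, and at pilocarpine day 10 of laboratory B, by 1.38 (exact permutation tests, adjusted p = 0.0177 each). These markers went both ways, with 1 higher and 1 lower of 6 at kainate day 1 and 2 higher and 1 lower at pilocarpine day 10. Their median changes were 0.05 and 0.25. The part that these shifts have in the members' changes was not tested. Array medians ran from 27.87 to 54.22 signal units. The median was lower at pilocarpine day 1 of laboratory A (exact permutation p = 0.00216, the smallest possible with 6 against 6, adjusted p = 0.0177 over 147 checks). Labels contradict each other for rat 3 of SSSE day 1 and for rat 4 of stage 2 in kindling laboratory A, and both were kept in the group their titles give. Another 6 rats correlated less well with their own group, by more than 0.02 in r, 1 at kainate day 1 of laboratory A, 1 at SSSE day 3 and 4 at day 10 of pilocarpine or kainate. Results without either set of rats are stated where a call differs.

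Day 1 after SE was the time at which most members changed, and among the called changes the deepest falls were in the phosphodiesterase Pde2a and the cyclase Adcy8 and the largest rise was in Crem. At pilocarpine day 1, 8 of 29 members changed, 5 higher and 3 lower, or 27.6% against 32.1% of all genes tested (15.8% higher, 16.3% lower). At kainate day 1, 14 changed, 6 higher and 8 lower, or 48.3% against 41.6% (22.2% higher, 19.4% lower). At SSSE day 1, 4 changed, all lower, or 13.8% against 12.5% of all genes (5.51% higher, 7.02% lower). The shares called in either direction are near the background. The counts by direction rest on few genes, and no enrichment of the members was tested. The median change of the members was 0.01 at pilocarpine day 1, -0.14 at kainate day 1 and -0.08 at SSSE day 1, where the median of all genes was 0.00, 0.02 and 0.00. In all, 16 of the 29 members changed in at least 1 of the 12 comparisons and 13 in none.

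**Figure D1:**
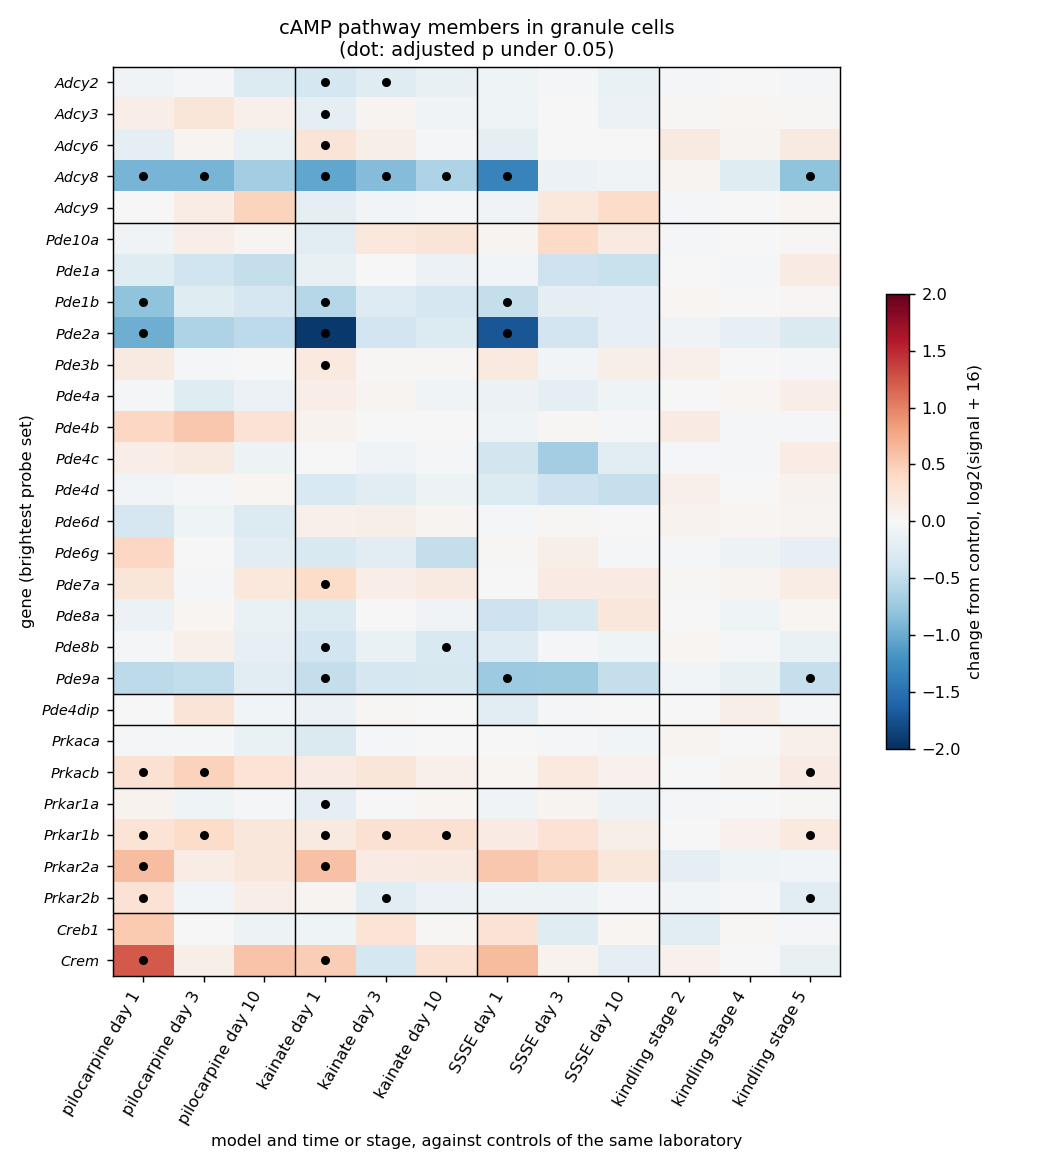
Change from control of the 29 tested members (rows, grouped as cyclases, phosphodiesterases, Pde4dip, PKA catalytic subunits, PKA regulatory subunits and CREB family) in 12 comparisons (columns), in log2(signal + 16). Blue is lower and red higher than control, and a dot marks an adjusted p under 0.05. Adcy8 is blue with a dot in 7 columns, Pde2a is darkest at kainate day 1 (-1.93), and Crem is reddest at pilocarpine day 1 (1.22).

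Fewer members differed from control later. At pilocarpine day 3, 3 changed, 2 higher and 1 lower, or 10.3% against 11.7% of all genes (7.74% higher, 3.92% lower). In kainate, 4 changed at day 3, 1 higher and 3 lower, or 13.8% against 7.96% (4.66% higher, 3.3% lower). At its day 10, 3 changed, 1 higher and 2 lower, or 10.3% against 6.28% (2.57% higher, 3.71% lower). At pilocarpine day 10 limma called 0 members against 8.93% of all genes, although 10 had an unadjusted p under 0.05. At SSSE day 3 it called 0 against 3.14% of all genes, with 6 at an unadjusted p under 0.05, and at SSSE day 10 it called 0 against 0.344%, with 3. In kindling it called 0 members and 0 of all genes at stage 2 (2 members and 523 genes at an unadjusted p under 0.05). The counts were the same at stage 4 (0 members and 504 genes at that unadjusted p). At stage 5, 5 members changed, 2 higher and 3 lower, or 17.2% against 7.1% of all genes (3.23% higher, 3.87% lower). In 1 fit of all 28 groups the stage 5 call held for Adcy8 alone (adjusted p = 0.0453), and limma gave an adjusted p of 0.182 for Pde9a, 0.195 for Prkar1b, 0.0744 for Prkar2b and 0.596 for Prkacb.

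Adcy8, a cyclase stimulated by calcium and calmodulin, was lower in 7 of the 12 comparisons, more than any other member. It was rather dim, above the array median in 108 of 164 rats. At kainate day 1 its level was 4.82, 4.97 and 5.26 (lowest, median and highest rat) in laboratory A, against 5.93, 6.38 and 6.74 in controls. In laboratory B it was 5.21, 5.84 and 6.66 at day 1, against 6.18, 6.78 and 7.15 in controls. The groups did not overlap in laboratory A and overlapped in B. Adcy8 fell by 1.04 ± 0.19 (n = 12 against 12 controls, adjusted p = 1.4e-05), a 2.05-fold lower value, and 10 of 12 rats lay below the range of their controls. In pilocarpine it was, at day 1, 4.88, 5.53 and 6.34 in laboratory A, against 6.01, 6.58 and 7.34 in controls, and 4.60, 5.10 and 6.85 in laboratory B, against 5.64, 6.25 and 6.55 in controls. The groups overlapped in both laboratories. It fell by 0.92 ± 0.25 (adjusted p = 0.00312), with 9 of 12 rats below their controls and 1 above. In SSSE it was 4.51, 5.04 and 6.32 at day 1, against 6.46, 6.47, 7.31, 6.08 and 6.23 in the 5 controls. This was the deepest fall of Adcy8, by 1.33 ± 0.29 (n = 6 against 5, adjusted p = 0.00779), with 5 of 6 rats below every control.

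After day 1 Adcy8 stayed low in most pilocarpine and kainate rats. At day 3 it was called at -0.93 ± 0.25 in pilocarpine (adjusted p = 0.00801) and -0.87 ± 0.19 in kainate (adjusted p = 0.00134), each with 9 of 12 rats below their controls. At SSSE day 3 the rats were at 6.37, 5.83, 7.13, 5.90 and 6.73, within or near the controls, with a change of -0.12 ± 0.30 (adjusted p = 0.877). At day 10 it was -0.62 ± 0.19 in kainate (adjusted p = 0.0362), -0.69 ± 0.25 in pilocarpine (adjusted p = 0.0665) and -0.06 ± 0.32 in SSSE (adjusted p = 0.973). The kainate day 10 call was lost when any 1 of 13 of the 48 rats was left out (adjusted p up to 0.0891), whereas the other 6 calls of Adcy8 held without any 1 rat. Within SSSE the day 10 value exceeded that of day 1 by 1.27 ± 0.31 (adjusted p = 0.0257). The change of Adcy8 was not called different between the SE models at day 1 (adjusted p = 0.785), day 3 (adjusted p = 0.65) or day 10 (adjusted p = 0.753).

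Adcy8 was also the cyclase that changed in kindling. At stage 5 it was 4.74, 5.27 and 7.21 in laboratory A, against 5.94, 6.28 and 6.94 in controls, and 5.45, 5.64 and 7.27 in laboratory B, against 6.13, 6.84 and 7.15 in controls. In both laboratories most rats were low and 1 lay above all controls. It fell by 0.80 ± 0.22 (n = 12 against 12, adjusted p = 0.0199), with 9 rats below and 2 above the range of their controls. At stage 2 the change was 0.05 ± 0.22 and at stage 4 -0.24 ± 0.22, and neither was called. Stage 5 was lower than stage 2 by 0.85 (adjusted p = 0.0268), although the test over all 3 stages did not call Adcy8 (adjusted p = 0.0819).

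**Figure D2:**
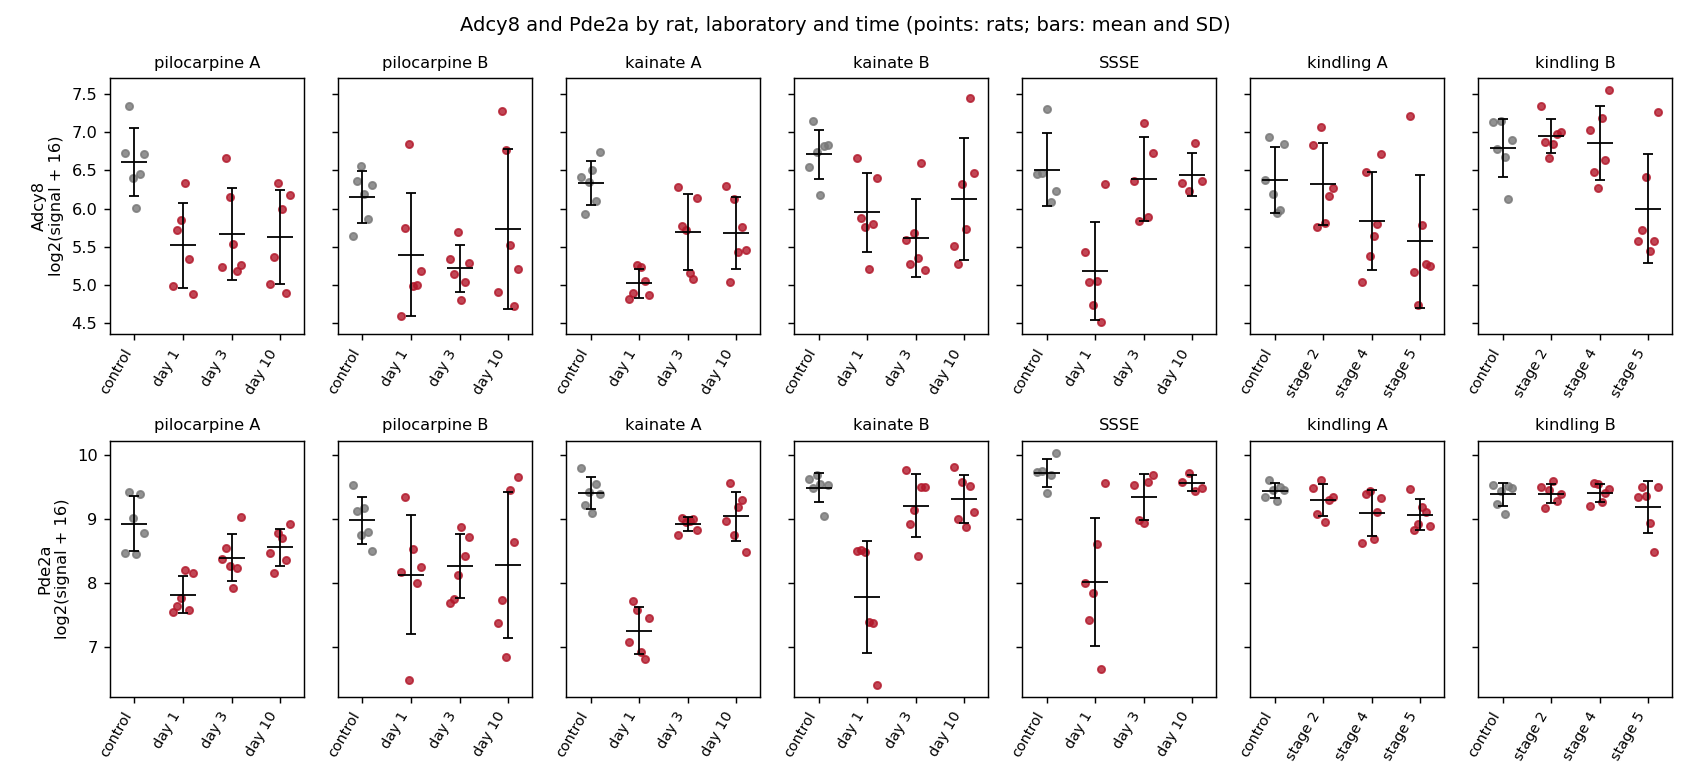
Levels of Adcy8 (top) and Pde2a (bottom) in log2(signal + 16) for every rat, by laboratory (panels) and by control, then time or stage (x axis), with grey points for control rats, red points for SE or kindled rats and bars for the mean and SD. Pde2a is low in all rats of kainate day 1 (at most 8.52, against at least 9.05 in controls) and closer to them at day 3, while Adcy8 stays low in most pilocarpine and kainate rats and is low in most rats at kindling stage 5.

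The other cyclases changed less, and the calls were at kainate. Adcy2, which is stimulated by G protein beta-gamma subunits, was 9.92, 10.12 and 10.35 at kainate day 1 in laboratory A, against 10.22, 10.36 and 10.54 in controls. In laboratory B it was 9.33, 9.67 and 9.90 at day 1, against 9.88, 10.15 and 10.26 in controls. It fell by 0.36 ± 0.07 (adjusted p = 4.8e-05), with 9 of 12 rats below their controls, and by 0.24 ± 0.07 at day 3 (adjusted p = 0.0214). Its change at pilocarpine day 1 was -0.07 ± 0.11 (adjusted p = 0.689) and at SSSE day 1 -0.09 ± 0.06 (adjusted p = 0.349). Adcy3, best known from olfactory neurons and neuronal cilia, was 7.67, 7.90 and 8.21 at kainate day 1 in laboratory A, against 7.91, 8.00 and 8.22 in controls, and 7.60, 7.78 and 8.14 in laboratory B, against 7.94, 8.13 and 8.40 in controls. The groups overlapped in both. It fell by 0.20 ± 0.07 (adjusted p = 0.0221), a call that was lost without laboratory A day 1 rat 5 or without laboratory B control rat 6 (adjusted p up to 0.0514). Adcy6, a cyclase inhibited by calcium, rose by 0.26 ± 0.10 at kainate day 1 (adjusted p = 0.0357), with 4 of 12 rats above their controls, and the call was lost without any 1 of 7 of the 48 rats (adjusted p up to 0.0948) and without the 6 less well correlated rats (adjusted p = 0.0725). Adcy9 was called in no comparison (changes from -0.18 to 0.44).

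Among phosphodiesterases the largest change was in Pde2a, an enzyme that hydrolyses cAMP and cGMP and is stimulated by cGMP. In kainate its level at day 1 was 6.81, 7.26 and 7.72 in laboratory A, against 9.09, 9.41 and 9.81 in controls, and 6.41, 7.94 and 8.52 in laboratory B, against 9.05, 9.54 and 9.69 in controls. All 12 rats were below all controls of their laboratory. Pde2a fell by 1.93 ± 0.17 (adjusted p = 1.2e-12), a 3.81-fold lower value. In SSSE the day 1 level was 6.66, 7.92 and 9.57, against 9.74, 9.75, 9.41, 9.69 and 10.04 in controls, with 5 of 6 rats below every control. Pde2a fell by 1.71 ± 0.33 in SSSE (adjusted p = 0.00382). In pilocarpine the day 1 level was 7.55, 7.71 and 8.20 in laboratory A, against 8.46, 8.90 and 9.43 in controls, and 6.49, 8.21 and 9.35 in laboratory B, against 8.50, 8.96 and 9.54 in controls. Groups did not overlap in A and overlapped in B. The fall was 0.98 ± 0.24 (adjusted p = 0.00139), with 10 of 12 rats below their controls.

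The fall of Pde2a was deeper at kainate day 1 than at pilocarpine day 1. The pilocarpine change minus the kainate change was 0.95 ± 0.27 (adjusted p = 0.0286), in the fit over all 28 groups. Pde2a was the member that the test over the 3 SE models called at day 1 (adjusted p = 0.0427, against 5.72% of all genes), and at day 3 and day 10 that test called 0 members, against 0.446% and 0.065% of all genes, with 2 and 1 at an unadjusted p under 0.05. Model and laboratory cannot be told apart in that test. Without the 2 rats of contradicting labels it called 0 members at day 1. The SSSE change differed from that of kainate by 0.22 ± 0.35 (adjusted p = 0.864). Pde2a was closer to control at later days. At kainate day 3 the change was -0.39 ± 0.17 (adjusted p = 0.186), and the laboratory A rats still did not overlap their controls. In kainate it was higher at day 3 than at day 1 by 1.54 ± 0.17 (adjusted p = 1.8e-09) and at day 10 by 1.66 ± 0.17 (adjusted p = 2.0e-10). In SSSE it was higher at day 10 than at day 1 by 1.54 ± 0.35 (adjusted p = 0.0221). At pilocarpine day 3 the change was -0.62 ± 0.24 (adjusted p = 0.0866) with 8 of 12 rats below their controls. At day 10 the laboratory B rats spread widely, at 6.85, 8.19 and 9.66, against 8.50, 8.96 and 9.54 in controls. For Pde2a at kindling stage 5 the change was -0.28 ± 0.10 (adjusted p = 0.0718) with 7 of 12 below.

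Pde1b, a calcium and calmodulin-dependent enzyme that hydrolyses both cyclic nucleotides, fell at day 1 of all 3 SE models. At pilocarpine day 1 it was 8.31, 8.94 and 9.27 in laboratory A, against 9.50, 9.87 and 9.98 in controls, and 8.61, 8.99 and 9.66 in laboratory B, against 9.67, 9.82 and 9.86 in controls. No day 1 rat reached its control range. The fall was 0.81 ± 0.15 (adjusted p = 2.9e-05, 12 of 12 rats below). At SSSE day 1 Pde1b was 9.25, 9.47 and 9.91, against 9.94, 10.08, 10.08, 9.94 and 9.92 in controls. All 6 rats lay below every control, with a fall of 0.48 ± 0.09 (adjusted p = 0.00422). The SSSE rats of day 3 (9.82, 9.73, 9.80, 9.79 and 9.87) and day 10 (9.79, 9.87, 9.90 and 9.78) also lay below every control, although their changes of -0.19 ± 0.10 (adjusted p = 0.308) and -0.16 ± 0.10 (adjusted p = 0.694) did not pass. In kainate it fell by 0.56 ± 0.13 at day 1 (adjusted p = 0.000351, 9 of 12 rats below), with -0.22 in laboratory A and -0.90 in laboratory B. The moderated F-test between laboratories, over all 3 times together, did not call Pde1b (unadjusted p = 0.0706, adjusted p = 0.999). That is no test of the day 1 gap alone. In pilocarpine Pde1b was higher at day 3 than at day 1 by 0.57 ± 0.15 (adjusted p = 0.00417). In kindling the changes of Pde1b lay between 0.01 and 0.04, and none was called.

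Pde9a, a phosphodiesterase specific for cGMP, was lower at kainate day 1, SSSE day 1 and kindling stage 5. Its SSSE day 1 level was 6.78, 7.12 and 7.46, against 7.65, 7.85, 7.92, 7.86 and 8.09 in controls, and no rat overlapped the controls. It fell by 0.73 ± 0.19 (adjusted p = 0.0189). At kindling stage 5 it was 6.77, 7.17 and 7.41 in laboratory A, against 7.42, 7.68 and 8.01 in controls, and 7.17, 7.39 and 8.10 in laboratory B, against 7.75, 7.78 and 7.96 in controls. The groups did not overlap in laboratory A. Pde9a fell there by 0.46 ± 0.10 (adjusted p = 0.00493), with 10 of 12 rats below their controls and 1 above. The kainate day 1 change was -0.47 ± 0.14 (adjusted p = 0.00517). The values at pilocarpine day 1 (-0.52 ± 0.21, adjusted p = 0.0564) and SSSE day 3 (-0.70 ± 0.20, adjusted p = 0.0603) were of like size but did not pass.

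**Figure D3:**
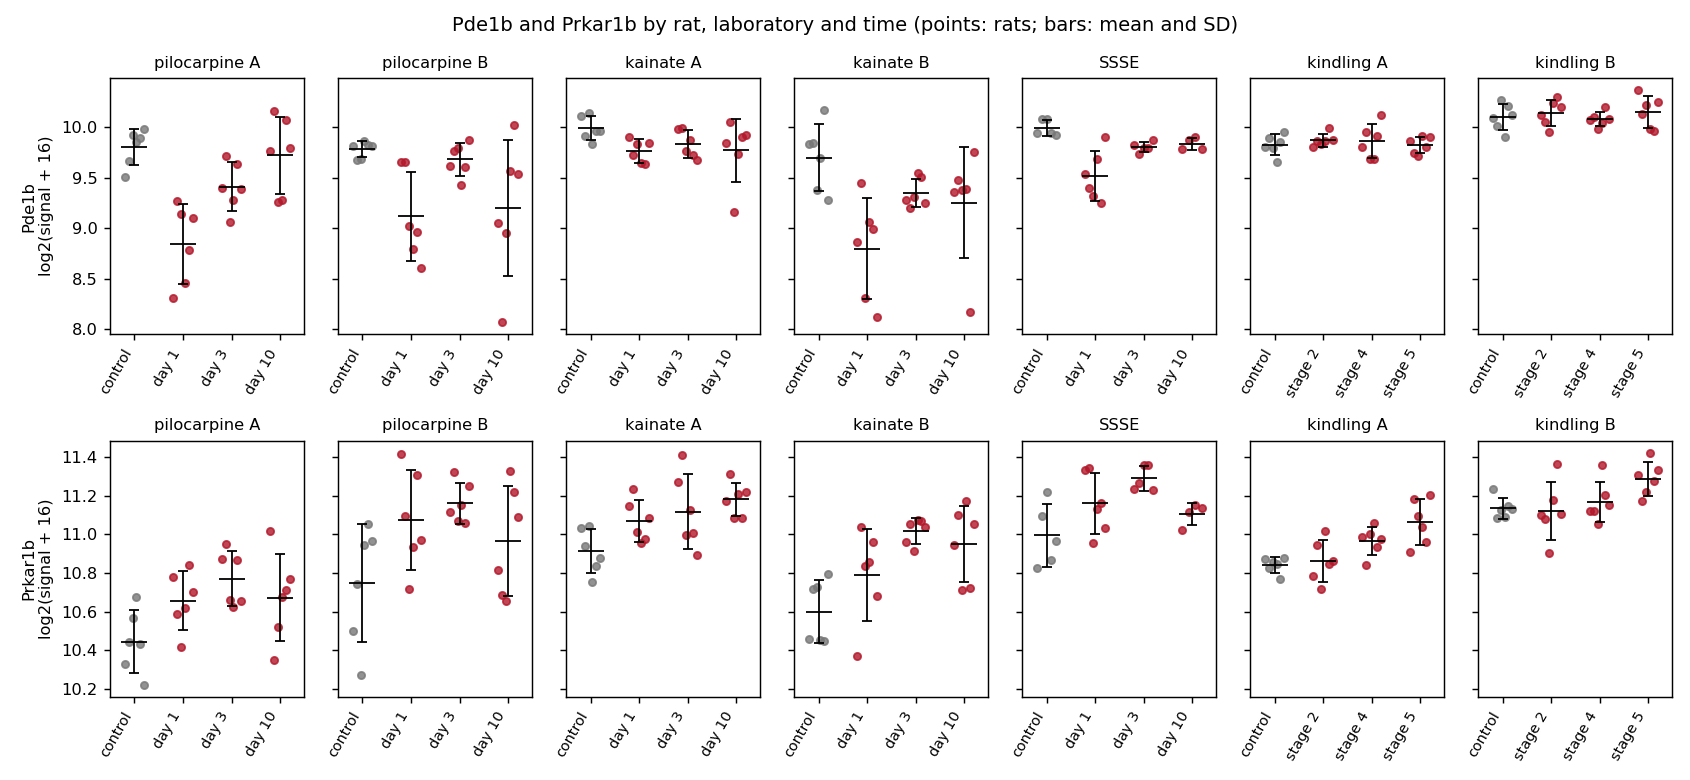
Levels of Pde1b (top) and Prkar1b (bottom) in log2(signal + 16) for every rat, by laboratory (panels) and by control, then time or stage (x axis), with grey points for control rats, red points for SE or kindled rats and bars for the mean and SD. Pde1b is below its controls in every rat at pilocarpine day 1 and SSSE day 1, and Prkar1b lies slightly above its controls at most times after pilocarpine and kainate and at kindling stage 5.

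Of the other phosphodiesterases, 3 changed, all of them in kainate. Pde8b, a cAMP-specific enzyme of high affinity, fell by 0.38 ± 0.09 at kainate day 1 (adjusted p = 0.000973, 10 of 12 rats below their controls). At kainate day 10 it fell by 0.30 ± 0.09 (adjusted p = 0.0446), a call that was lost without any 1 of 16 of the 48 rats (adjusted p up to 0.0887). Pde7a, also specific for cAMP, rose by 0.37 ± 0.09 at kainate day 1 (adjusted p = 0.000572), with 0.11 in laboratory A and 0.62 in laboratory B. Pde3b, which cGMP inhibits, rose by 0.20 ± 0.07 (adjusted p = 0.0288), and the call was lost without any 1 of 4 rats (laboratory A control rat 4 and day 1 rat 5, laboratory B control rat 2 and day 1 rat 4, adjusted p up to 0.0649). Pde8b and Pde3b were dim, above the array median in 27 and 53 of 164 rats, and a stricter filter on dim probe sets left both untested. The phosphodiesterases thus went both ways, with 2 higher and 4 lower of 15 at kainate day 1.

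The cAMP-specific Pde4 enzymes, the targets of rolipram, were called in no comparison. Pde4b had 0.54 ± 0.19 at pilocarpine day 3 (adjusted p = 0.0535, 6 of 12 rats above their controls) and 0.41 ± 0.19 at day 1 (adjusted p = 0.0914). Pde4c, which was dim and above the array median in only 10 of 164 rats, had -0.69 ± 0.20 at SSSE day 3 (adjusted p = 0.0578). Pde4d had -0.31 ± 0.14 at kainate day 1 (adjusted p = 0.064). The largest value of Pde4a was -0.24, at pilocarpine day 3. Pde4dip lay between -0.23 and 0.25. Also never called were Pde1a, Pde10a (a dual enzyme best known from striatal neurons), Pde6d (named as a photoreceptor subunit but known as a carrier of prenylated proteins), Pde6g, Pde8a, the catalytic subunit Prkaca, and Creb1 and Adcy9. Of these, Prkaca came closest, with -0.29 ± 0.12 at kainate day 1 (adjusted p = 0.0517). Pde10a differed between the kainate times (adjusted p = 0.000572): it had -0.22 ± 0.11 at day 1, 0.21 ± 0.11 at day 3 and 0.26 ± 0.11 at day 10, none of them called against control.

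Among the PKA subunits, Prkar1b, Prkar2a and Prkacb rose wherever they were called, and Prkar2b went both ways. Prkar1b, the neuronal regulatory subunit RI-beta, was higher in 6 of the 12 comparisons. At kindling stage 5 it was 10.91, 11.07 and 11.20 in laboratory A, against 10.77, 10.85 and 10.88 in controls, and 11.17, 11.29 and 11.42 in laboratory B, against 11.08, 11.13 and 11.23 in controls. The groups did not overlap in laboratory A. It rose by 0.19 ± 0.04 (adjusted p = 0.00665), with 10 of 12 rats above their controls. At kainate day 10 it was 11.09, 11.19 and 11.31 in laboratory A, against 10.75, 10.91 and 11.05 in controls, and 10.71, 10.999 and 11.17 in laboratory B, against 10.45, 10.59 and 10.79 in controls. It rose by 0.31 ± 0.07 there (adjusted p = 0.00295), with 10 of 12 rats above. The rise was 0.31 ± 0.07 at kainate day 3 (adjusted p = 0.0018) and 0.37 ± 0.09 at pilocarpine day 3 (adjusted p = 0.00618), each with 9 of 12 rats above. Smaller rises at day 1, of 0.17 ± 0.07 in kainate (adjusted p = 0.0409) and 0.27 ± 0.09 in pilocarpine (adjusted p = 0.0243), had 7 and 6 of 12 rats above. The kainate call was lost without any 1 of 13 rats (adjusted p up to 0.0854) and without the 6 less well correlated rats (adjusted p = 0.0551), and the pilocarpine call without laboratory B control rat 3 or day 1 rat 1 (adjusted p up to 0.0618). At SSSE day 3 the change was 0.30 ± 0.09 (adjusted p = 0.0704), with all 5 rats above every control.

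Prkar2a, the regulatory subunit RII-alpha, rose at day 1. Its level at kainate day 1 was 8.54, 8.64 and 8.74 in laboratory A, against 7.83, 8.17 and 8.55 in controls, and 8.41, 8.52 and 8.75 in laboratory B, against 7.63, 7.83 and 8.08 in controls. Laboratory B did not overlap its controls. Prkar2a rose by 0.59 ± 0.11 (adjusted p = 3.2e-05), with 11 of 12 rats above. At pilocarpine day 1 it was 8.01, 8.42 and 9.36 in laboratory A, against 7.16, 7.53 and 8.14 in controls, and 7.86, 8.07 and 8.42 in laboratory B, against 7.54, 7.73 and 7.97 in controls. The groups overlapped slightly in both laboratories. It rose by 0.62 ± 0.15 (adjusted p = 0.00115, 9 of 12 above). In SSSE its day 1 level was 8.24, 8.33 and 8.43, against 8.14, 7.93, 7.96, 8.25 and 6.66 in controls, and 5 of 6 rats lay above every control. The change of 0.54 ± 0.22 did not pass there (adjusted p = 0.109), and control rat 5 at 6.66 stood far from the other controls. The rise was lower at later days. Day 3 minus day 1 was -0.42 ± 0.11 in kainate (adjusted p = 0.00298) and -0.48 ± 0.15 in pilocarpine (adjusted p = 0.0171).

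Prkar2b, the regulatory subunit RII-beta, was called higher at pilocarpine day 1 and lower at kainate day 3 and kindling stage 5. At pilocarpine day 1 it was 9.95, 10.00 and 10.16 in laboratory A, against 9.50, 9.80 and 9.85 in controls, and 9.59, 10.14 and 10.39 in laboratory B, against 9.59, 9.84 and 9.94 in controls. It rose by 0.29 ± 0.09 (adjusted p = 0.0135), with 11 of 12 rats above their controls and 1 below. At kindling stage 5 it was 9.39, 9.64 and 9.78 in laboratory A, against 9.78, 9.80 and 9.87 in controls, and 9.21, 9.41 and 9.60 in laboratory B, against 9.56, 9.67 and 9.73 in controls. It fell by 0.22 ± 0.05 (adjusted p = 0.00417), with 10 of 12 rats below. At kainate day 3 it fell by 0.23 ± 0.07 (adjusted p = 0.032, 9 of 12 below), a call that was lost without any 1 of 8 rats (adjusted p up to 0.0688). Kindling stage 5 was lower than stage 2 by 0.17 (adjusted p = 0.0464). The moderated F-test did not call the change of Prkar2b different between the SE models at the same day. Its adjusted p was 0.0548 at day 1, 0.706 at day 3 and 0.392 at day 10.

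Prkacb, the catalytic subunit C-beta, rose at pilocarpine days 1 and 3 and kindling stage 5. At pilocarpine day 3 it was 11.20, 11.53 and 12.12 in laboratory A, against 10.64, 11.19 and 11.68 in controls, and 11.78, 11.91 and 12.10 in laboratory B, against 11.23, 11.43 and 11.58 in controls. Laboratory B did not overlap its controls. Prkacb rose by 0.46 ± 0.12 (adjusted p = 0.00793), with 8 of 12 rats above. It also rose by 0.16 ± 0.05 at kindling stage 5 (adjusted p = 0.0322, 6 of 12 above) and by 0.31 ± 0.12 at pilocarpine day 1 (adjusted p = 0.045, 8 above and 1 below). The kindling call was lost without any 1 of 7 rats (adjusted p up to 0.0728) and the pilocarpine day 1 call without any 1 of 15 (adjusted p up to 0.101). With quantile normalization the kindling change was 0.07 (adjusted p = 0.343).

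Crem rose at day 1 of pilocarpine and kainate. At pilocarpine day 1 it was 8.29, 8.84 and 10.95 in laboratory A, against 7.05, 7.29 and 7.71 in controls, and 7.46, 8.08 and 8.74 in laboratory B, against 7.08, 7.33 and 7.70 in controls. Laboratory A did not overlap its controls, and rat 1 of that group stood highest at 10.95. Crem rose by 1.22 ± 0.21 (adjusted p = 9.7e-06), a 2.33-fold higher value, with 11 of 12 rats above their controls. The change was 1.77 in laboratory A and 0.68 in laboratory B, for which the test between laboratories gave an adjusted p of 0.0859. Leaving out any 1 rat kept the rise between 1.04 and 1.30. In kainate Crem was, at day 1, 7.57, 7.79 and 8.06 in laboratory A, against 7.30, 7.59 and 7.75 in controls, and 7.69, 8.36 and 9.38 in laboratory B, against 7.40, 7.70 and 7.81 in controls. It rose by 0.50 ± 0.19 (adjusted p = 0.0355, 8 of 12 above), a call that was lost without any 1 of 7 rats (adjusted p up to 0.0884) and with the mean of its probe sets (0.22, adjusted p = 0.179).

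At SSSE day 1 the rats stood at 7.33, 7.68 and 10.19, against 7.71, 7.64, 7.39, 7.25 and 7.22 in controls. Rat 5 stood far above the rest, and the change of 0.64 ± 0.38 did not pass (adjusted p = 0.277). The same rat had the lowest Pde2a (6.66) and Adcy8 (4.51) of its group. At day 3 Crem had 0.11 ± 0.21 in pilocarpine and -0.35 ± 0.19 in kainate, neither of them called, although 9 of 12 kainate rats lay below their controls. Day 3 minus day 1 was -1.11 ± 0.21 in pilocarpine (adjusted p = 0.000125) and -0.85 ± 0.19 in kainate (adjusted p = 0.000601). At pilocarpine day 10 it had 0.57 ± 0.21 (adjusted p = 0.0743), with 6 of 12 rats above their controls, and laboratory B reached 7.51, 8.29 and 9.67 against 7.08, 7.33 and 7.70 in controls. In kindling no stage was called. Creb1 was called in no comparison, with its largest value of 0.52 ± 0.25 at pilocarpine day 1 (adjusted p = 0.113). Which of the windows printed above serves ICER was not determined, and the arrays were not used to tell ICER from the other Crem transcripts.

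**Figure D4:**
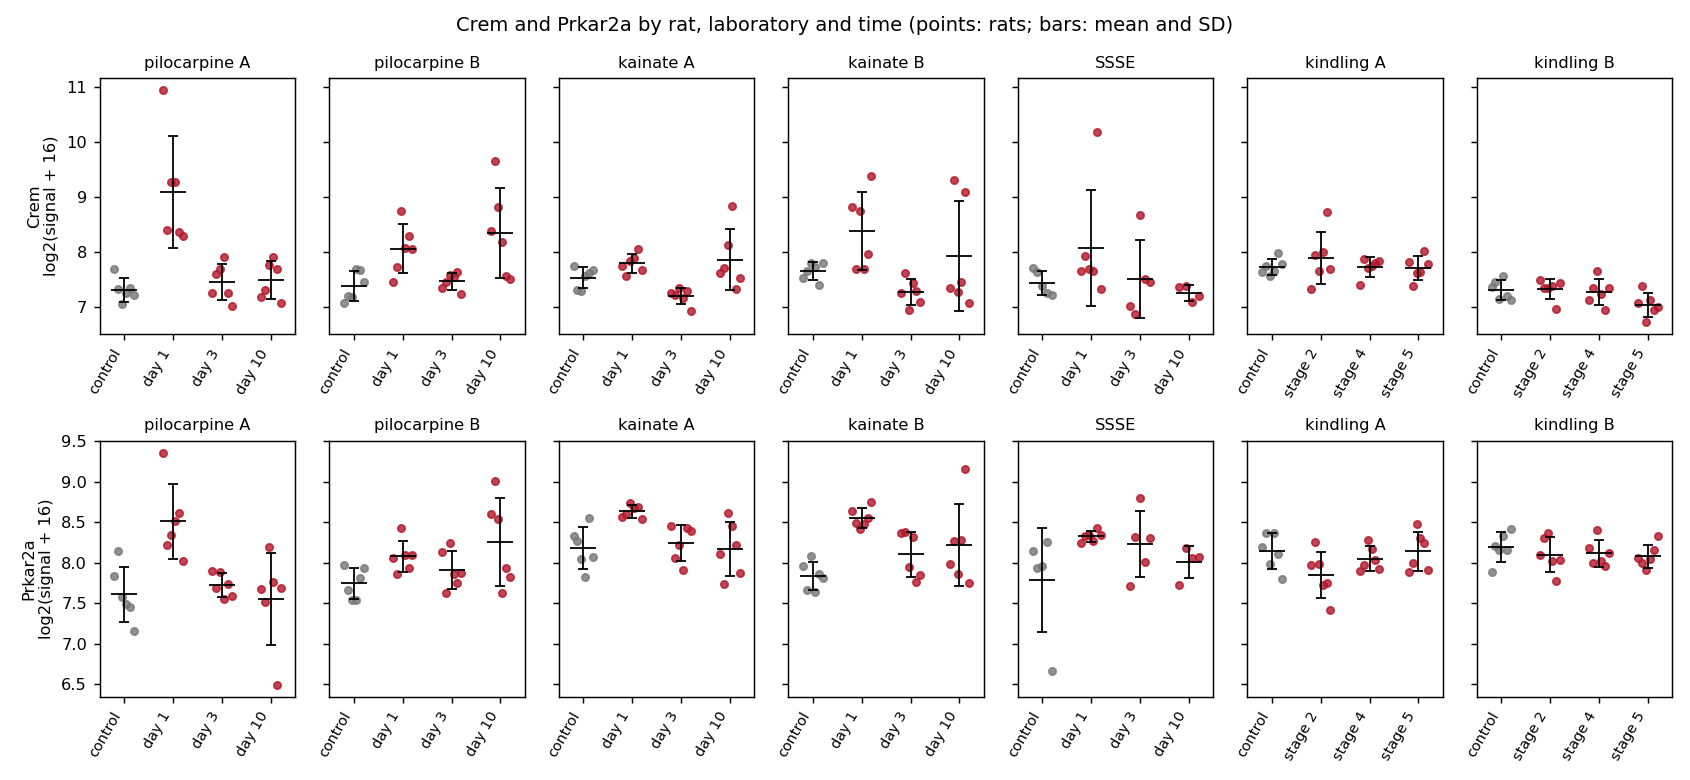
Levels of Crem (top) and Prkar2a (bottom) in log2(signal + 16) for every rat, by laboratory (panels) and by control, then time or stage (x axis), with grey points for control rats, red points for SE or kindled rats and bars for the mean and SD. Crem is above its controls in 11 of 12 rats at pilocarpine day 1. Several rats also stand high at pilocarpine day 10, and a few single rats at SSSE day 1 and kainate day 10.

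Probe sets of 1 gene did not always go the same way, which bears on which member is called. Of the 29 members, 7 had more than 1 probe set that passed the filter, and each was then tested on its own among 14282 probe sets. Prkar1a, the regulatory subunit RI-alpha, was called lower at kainate day 1 from its brightest probe set, by 0.18 ± 0.05 (adjusted p = 0.00602). Its second brightest was higher by 0.20 ± 0.07 (adjusted p = 0.0222), and the dimmest was higher by 0.78 ± 0.11 (adjusted p = 6.4e-08). So the direction of Prkar1a depends on the probe set. That dimmest probe set was also higher at pilocarpine day 1, by 0.64 ± 0.14 (adjusted p = 0.000341), at SSSE day 1, by 0.38 ± 0.12 (adjusted p = 0.0438), and at kainate day 10, by 0.37 ± 0.11 (adjusted p = 0.0279). The dimmer probe set of Prkacb was higher at kainate day 1 by 0.80 ± 0.10 (adjusted p = 1.6e-08) and at pilocarpine day 1 by 0.75 ± 0.17 (adjusted p = 0.00062). The brightest one had 0.17 ± 0.10 at kainate day 1 (adjusted p = 0.203). The 3 dimmer probe sets of Crem were not called, with 0.50 ± 0.21, 0.43 ± 0.25 and 0.47 ± 0.20 at pilocarpine day 1. They lay above the array median in only 12 to 18 of 164 rats. Likewise the dim second probe set of Pde1b, above the median in 6 rats, was not called. Positions of the probes were not used here, so where the probe sets lie in their transcripts was not determined.

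**Figure D5:**
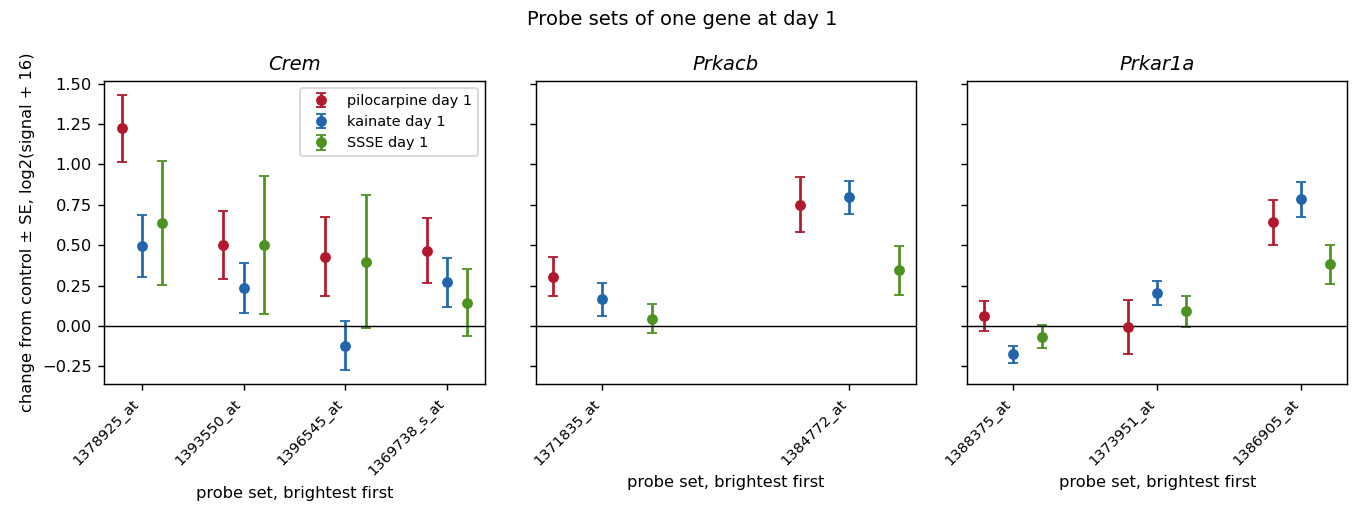
Change from control at day 1 with its standard error, in log2(signal + 16), for each probe set of Crem, Prkacb and Prkar1a that passed the filter (x axis, brightest first), in pilocarpine, kainate and SSSE. The probe sets of Prkar1a lie on both sides of 0 at kainate day 1, from -0.18 to 0.78, and the dimmer probe set of Prkacb lies above the brighter one.

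Differences between laboratories and between times were tested themselves. The laboratories of a model were not called different for any member in pilocarpine, kainate or kindling by the moderated F-test, against 0.269%, 0.00929% and 0% of all genes. In 1 fit of all 28 groups, 6 members differed between the pilocarpine laboratories, and with the first array only, or without 1 rat, up to 1 did. At an unadjusted p under 0.05 the counts of members were 5, 4 and 1. The change depended on the time for 6 members in pilocarpine (24.6% of all genes), among them Crem, Pde1b, Prkar2a and Prkar2b. In kainate it did so for 8 (35.2% of all genes), with Pde2a at an adjusted p of 4.5e-11. In SSSE the 2 members were Adcy8 and Pde2a (3.19% of all genes), and neither was called without the rat of contradicting labels. In kindling the member was Prkar2b (0.994% of all genes). The kainate times also differed for Prkar1a, whose day 1 value rests on the choice of probe set.

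Other genes of the pathway were counted from lists. Their counts are to be read against the share of all genes called, at pilocarpine day 1 15.8% higher and 16.3% lower and at kainate day 1 22.2% higher and 19.4% lower. Of 9 tested genes of Gs-coupled receptors and their ligands, which stimulate cyclases, 0 were higher and 4 lower at pilocarpine day 1 (median -0.41). In kainate, 0 were higher and 3 lower at day 1. Adcyap1r1, the receptor for the neuropeptide PACAP, had changes of -1.10 ± 0.20 at pilocarpine day 1 and -1.11 ± 0.19 at kainate day 1. Drd1, the dopamine D1 receptor, had -1.50 ± 0.47 at SSSE day 1 and -0.78 ± 0.16 at kindling stage 5. Of 6 tested G protein alpha subunits, 1 was higher and 2 lower at pilocarpine day 1 and 3 lower at kainate day 1. Gnal, which couples D1 receptors to cyclases in the striatum, fell by 0.94 ± 0.11 at kainate day 1 and rose by 0.26 ± 0.08 at kindling stage 5 (adjusted p = 0.0341).

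Of 12 tested A-kinase anchoring proteins, which hold PKA near its substrates, 2 were higher and 3 lower at pilocarpine day 1, and 2 higher and 4 lower at kainate day 1, near those shares of all genes. Akap7 changed by -1.85 ± 0.28 and -1.50 ± 0.23 there, and Akap6 rose by 1.08 ± 0.19 and 0.75 ± 0.18. Among 9 tested PKA inhibitors and other cAMP effectors, Pkib, a PKA inhibitor peptide, had -1.66 ± 0.29 at pilocarpine day 1, -2.27 ± 0.29 at kainate day 1 and -1.28 ± 0.30 at SSSE day 1. It also fell at day 10, with -1.32 ± 0.29 in pilocarpine and -1.45 ± 0.29 in kainate. That list had 1 higher and 2 lower at pilocarpine day 1, and 2 higher and 2 lower at kainate day 1. Of the 5 genes listed as PKA-regulated phosphatase inhibitors and related phosphoproteins, 3 were higher and 1 lower at both pilocarpine and kainate day 1. Ppp1r1b (DARPP-32) had -1.82 ± 0.21 and -1.53 ± 0.19, and Arpp21 rose by 1.49 ± 0.18 and 0.96 ± 0.15. Both passed again at kindling stage 5, Ppp1r1b at -0.49 ± 0.12 and Arpp21 at 0.43 ± 0.11.

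The 11 members that were not tested were Adcy4, Adcy5, Adcy10, Pde1c, Pde3a, Pde5a, Pde6a, Pde6b, Pde6h, Pde7b and Pde12, which is named with the phosphodiesterases although it does not act on cyclic nucleotides. Their mean levels over all rats ran from 4.11 to 4.84, and each lay above the array median in at most 5 rats. Signals this close to the value of 16 that was added limit what can be seen of differences between groups. Some groups still stood apart from their controls, as did Pde6b and, in pilocarpine laboratory A at days 3 and 10, Adcy5. Pde6b at kainate day 1 was 4.79, 5.87 and 7.30 in laboratory B, against 4.16, 4.52 and 4.68 in controls, with every rat above every control. In laboratory A it was 4.58, 4.89 and 6.22, against 4.06, 4.10 and 4.78 in controls, and the groups overlapped. These differences were not tested. Levels of different genes come from different probes and were not set against each other.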

How the data were processed

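For every array the authors deposited a linear intensity of each probe set. MAS5 stands, unversioned, in the submitters' processing notes. Genes were named from GEO's platform annotation, and a probe set with several symbols was left out. Signals were turned into log2(signal + 16), and repeated arrays of 8 rats were averaged. Among these 8 were control rats 1 to 5 of pilocarpine laboratory A, whose SE rats had 1 array each. Probe sets above their array's median in at least 6 rats were kept, and the brightest stood for its gene. Each model was fitted in limma 3.58.1 (R 4.3.3) with 1 mean per group, and each time was compared with controls of the same laboratory. Benjamini-Hochberg adjustment ran over all genes within a comparison, and 0.05 was the threshold. Moderated F-tests compared laboratories, times and, in 1 fit of all 28 groups, the SE models. The fit was tested on simulated data. Figures used matplotlib 3.10.9. Members and lists were chosen with earlier results of these data known. Values by rat are given for Crem and, in each role, the 3 members with the largest mean absolute change after SE among those called, and up to 3 genes per list and comparison are named. Same-numbered rats were not treated as pairs, since 89 of 240 pairs of same-numbered rats from different groups of a laboratory correlated over 0.1 (median r = 0.068). The number of arrays limits the precision.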

Additional observations from a re-analysis of the deposited data

Results flagged for a closer look

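In 18 of 308 combinations of a named member and a group of 4 to 6 rats, 1 rat stood far from the rest, where chance gives about 1 in 20. The combinations reuse the same rats. For Crem these were pilocarpine laboratory A day 1 rat 1 at 10.95, SSSE day 1 rat 5 at 10.19, kindling laboratory A stage 4 rat 1 at 7.40 and kindling laboratory B stage 2 rat 5 at 6.98. For PKA subunits they were Prkar2a in SSSE control rat 5 at 6.66, and Prkar2b in kindling laboratory B stage 4 rat 6 at 9.89, pilocarpine laboratory A control rat 3 at 9.50 and pilocarpine laboratory B control rat 1 at 9.59. For cyclases they were Adcy8 in kainate laboratory B day 3 rat 5 at 6.60, Adcy2 in pilocarpine laboratory A day 10 rat 2 at 9.003 and pilocarpine laboratory B control rat 3 at 10.06, and Adcy3 in kainate laboratory A day 10 rat 3 at 7.64, kindling laboratory B stage 5 rat 3 at 8.01 and kindling laboratory A control rat 4 at 8.10. For phosphodiesterases they were Pde2a in kainate laboratory B control rat 5 at 9.05, and Pde1b in kainate laboratory A day 10 rat 3 at 9.16, kainate laboratory B day 10 rat 5 at 8.17 and kindling laboratory A stage 2 rat 5 at 9.99.

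The size of the change differed between the times of a model for several members in the moderated F-test. In pilocarpine the adjusted p was 0.000401 for Crem, 0.00659 for Pde1b, 0.0182 for Prkar2b, 0.019 for Pde6g, 0.0295 for Prkar2a and 0.0449 for Pde4dip. In kainate it was 4.5e-11 for Pde2a, 0.000572 for Pde10a, 0.00111 for Crem, 0.0026 for Prkar2a, 0.00303 for Prkar1a, 0.00331 for Prkar2b, 0.0121 for Adcy3 and 0.0483 for Adcy2. In SSSE it was 0.0319 for Pde2a and 0.0337 for Adcy8, and in kindling 0.0383 for Prkar2b. Between the SE models at day 1 it was 0.0427 for Pde2a. Pde6g, Pde4dip and Pde10a passed in no comparison with control.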

How the results depend on the processing

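Of 448 values of called members under 11 other settings, 424 kept their direction and call, 23 kept their direction only, and 1 reversed: with the mean of its probe sets Prkar1a rose at kainate day 1 (0.27, adjusted p = 0.000149). Counts of members that moved by over 1.5 times were as follows, and the cause was not tested. With quantile normalization they were 1 at pilocarpine day 10, 1 at kainate day 10, 2 at SSSE day 3 and 2 between the SE models at day 1. With a pseudocount of 1 the count between models was 0, and with a pseudocount of 64 it was 2, beside 2 at SSSE day 3 and 2 between kindling stages. The stricter filter gave 2 between kindling stages. Taking the first array only gave 1 at SSSE day 3, 1 between pilocarpine laboratories and 2 between models. Numbers do not pair the rats, and with a replicate block the counts were 1 at pilocarpine day 10, 0 between SSSE times and 2 between kindling stages. One fit of all 28 groups, which pools the spread, gave 13, 9 and 8 at pilocarpine days 1, 3 and 10, 1 at kainate day 10, 1 at kindling stage 5, 6 between pilocarpine laboratories and 0 between kindling stages. Without 6 doubted rats 3 members differed between models. Without the rats of contradicting labels 0 differed between models, 0 between SSSE times and 2 between kindling stages, and without pilocarpine laboratory B day 10 rats 1, 2 and 3 there were 2 at pilocarpine day 10. Leaving out 1 rat at a time gave 0 to 2 members at SSSE day 3, 0 to 3 between SSSE times, 0 to 2 at pilocarpine day 10, 0 to 1 between pilocarpine laboratories, 1 to 3 at kainate day 10 and 0 to 4 between kindling stages. Of 41 calls, 30 held without any 1 rat, 11 were lost without at least 1, and none reversed. Leaving out each rat of the models with 2 laboratories, and fitting every probe set on its own, were added after the data were seen.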

Other observations

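Genes downstream of PKA and the cGMP side of the pathway were counted from the same lists. Of 13 tested CRE target genes, 6 were higher and 0 lower at pilocarpine day 1, and 5 higher and 1 lower at kainate day 1. Of all genes, 15.8% were called higher and 16.3% lower at pilocarpine day 1, and 22.2% higher and 19.4% lower at kainate day 1. Inhba, a subunit of activin, rose by 2.40 ± 0.39, 2.11 ± 0.44 and 1.61 ± 0.52 at day 1 of pilocarpine, kainate and SSSE (adjusted p = 5.2e-06, 0.000139 and 0.0483). Vgf, a secreted neuropeptide precursor, rose by 1.56 ± 0.36 at pilocarpine day 1 and 1.30 ± 0.29 at kainate day 1. Nr4a3 was the 1 called lower at kainate day 1, with -1.31 ± 0.47 (adjusted p = 0.0205). The immediate early gene Fos rose by 2.19 ± 0.59 at pilocarpine day 1 (adjusted p = 0.00332). At kindling stage 5 Fos fell by 1.28 ± 0.27 (adjusted p = 0.00257) and Inhba fell by 0.51 ± 0.16 (adjusted p = 0.0393), while Bdnf rose by 0.58 ± 0.15 (adjusted p = 0.0143). Of 14 tested CREB coactivators and relatives, 2 were higher and 1 lower at pilocarpine day 1, and 2 higher and 4 lower at kainate day 1. Sik1, a kinase that holds CREB coactivators in the cytoplasm, rose by 1.21 ± 0.21, 0.85 ± 0.17 and 0.89 ± 0.28 at day 1 of pilocarpine, kainate and SSSE. Crtc1, such a coactivator, fell by 0.38 ± 0.12 at kainate day 1 and 0.39 ± 0.12 at SSSE day 1. Of 4 tested guanylyl cyclases and PKG genes, Npr2, the receptor for C-type natriuretic peptide, rose by 0.90 ± 0.11 at kainate day 1 and 0.86 ± 0.14 at pilocarpine day 3, and Gucy1a1, a subunit of soluble guanylyl cyclase, fell by 0.91 ± 0.16 at kainate day 1.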
